A study of Rattus norvegicus with 24 samples.

Results

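This report describes 10 genes of the cytosolic heat shock chaperone system in rat brain stem: Hsp90aa1, Hsp90ab1, Hspa8, Hsph1, Hspa4l, Dnajb1, Dnaja1, Stip1, Fkbp4 and Chordc1. They were listed by name and looked up by symbol in the annotation of the array, among 22093 genes that have a transcript cluster of their own. A cluster is the unit of this array that gathers all probes of one transcribed locus. For 9 of the 10 genes such a cluster was found, and all counts below refer to these 9. The only cluster of Dnaja1 is also annotated to the microRNA gene Mir207, so its values are given separately as those of a shared cluster. The genes were chosen with earlier results of these data known. Counts and tests of the members are therefore descriptions and no independent support.

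Male Wistar rats (RccHan:WIST, 7-8 weeks old, an outbred stock) received untreated food or the same food with 400 ppm rotenone, which blocks complex I of mitochondria, for 1, 3 or 14 days. Brain stem RNA of 4 rats in each of the 6 groups was hybridized, 1 rat on 1 array, which gives 24 arrays. The control groups are called control and the treated groups rotenone-fed, each with its day. Control rats of day 14 were also older at sampling than those of day 1, so that age, time on study and day of sampling cannot be told apart in any change between days.

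Heat shock proteins of the cytosol form a relay. Hsp70 proteins, among them the constitutive Hspa8, bind stretches of unfolded protein, J-domain proteins such as Dnajb1 and Dnaja1 deliver these clients and start the ATP cycle, and the Hsp110 proteins Hsph1 and Hspa4l reset it by exchanging the nucleotide. Stip1, also known as Hop, hands clients on to Hsp90, of which Hsp90aa1 is the inducible and Hsp90ab1 the constitutive cytosolic form. Fkbp4 is an immunophilin that accompanies steroid receptors bound to Hsp90, and Chordc1 is a further Hsp90 partner. Transcription of many of these genes is raised by heat shock factor 1, which binds arrays of the letters GAA and TTC in alternating orientation, called heat shock elements. Neurons contain large amounts of Hspa8 and Hsp90 under normal conditions.

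The promoters of the chosen genes have such letters in common. The letters were not used in the choice by name. But the genes were chosen as heat shock chaperones, so these letters are not independent of the choice. The window from 250 bases before to 50 bases after the start of each gene was searched in RefSeq promoters of the GRCr8 assembly for GAANNTTC and TTCNNGAA, which are pairs of units and read the same on both strands, and for a GAANNTTC and a TTCNNGAA that overlap in 1 unit, which gives a run of 3 units. A promoter was available for 9 of the 10 genes, that is for all but Hsp90aa1. At least one pair of units was found in 8 of these 9, against 15.9% of the 33469 promoters searched, and a run of 3 units in 4 of the 9, against 0.798%. The stretches below show matches in capitals with their flanking letters, 5′ to 3′. Further pairs of units in these genes are not shown: at -105 to -98 in Hsph1, 18 to 25 in Dnajb1 and -181 to -174 in Dnaja1. Hspa8, Hsph1, Chordc1 and Dnaja1 are shown because they hold the run of 3 units, and Fkbp4, Stip1 and Dnajb1 because their transcripts are compared with them below.
Hspa8, upstream (chr8:50080281-50080333, plus strand, positions -233 to -181 from the start): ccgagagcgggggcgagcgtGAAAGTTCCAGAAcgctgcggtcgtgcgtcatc
Hspa8, near the start (chr8:50080439-50080491, plus strand, -75 to -23): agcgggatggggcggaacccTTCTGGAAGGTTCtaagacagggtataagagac
Hsph1 (chr12:10427312-10427364, plus strand, -56 to -4): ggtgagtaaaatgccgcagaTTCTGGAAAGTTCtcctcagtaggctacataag
Chordc1 (chr8:23650828-23650856, plus strand, 8 to 36): ccgGAACGTTCGGGAAGATTCCTGAAgca
Dnaja1 (chr5:60638405-60638433, plus strand, 2 to 30): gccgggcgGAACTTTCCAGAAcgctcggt
Fkbp4 (chr4:163398028-163398075, minus strand, -157 to -110): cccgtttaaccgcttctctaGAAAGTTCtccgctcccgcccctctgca
Stip1 (chr1:213657655-213657682, minus strand, -28 to -1): tcccggcagcttctagtaggTTCCAGAA
Dnajb1 (chr19:41431142-41431172, minus strand, -31 to -1): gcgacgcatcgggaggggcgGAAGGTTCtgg
Hspa8 has 2 such runs before the start, Hsph1 has 1 close to it, and in Chordc1 3 overlapping runs lie just after the start. Hsp90ab1 was the only searched member with no pair of units in this window. A match is a description of letters and was not tested for binding.

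All 9 transcripts were abundant. As means over the 24 arrays of log2 intensity, which is the scale of all levels and differences below, Hspa8 was at 19.13, Hsp90aa1 at 17.44, Hsp90ab1 at 15.38, Stip1 at 14.81, Hsph1 at 13.27, Hspa4l at 13.19, Chordc1 at 12.22, Fkbp4 at 11.90 and Dnajb1 at 10.31. Even Dnajb1 was brighter than 87.4% of the 68842 clusters, but intensities of different genes depend on their probes and are not ranked as amounts of RNA. Hspa8 was the 28th brightest cluster. Its array cluster has no chromosome in its identifier, and a dimmer cluster annotated as Hspa8, at 12.74, has chromosome 5 in its identifier whereas RefSeq places the gene on chromosome 8, and which of them measures the gene is not settled. Clusters named as processed copies of Hsp90aa1 (6), Hsp90ab1 (9) and Hspa8 (9) were also measured, and their probes may share sequence with the parent genes.

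Before the comparisons, some features of the arrays need to be stated. Of the control day 1 arrays, replicates 1 and 3 carried cerebellar transcripts: the mean of 10 cerebellum markers was 12.41 and 11.79 there, against 7.67 to 8.92 on all arrays of the other groups, and 8.54 and 8.34 on the other control day 1 arrays. The 8 choroid plexus markers ranged from 6.51 to 9.95 in rotenone-fed rats of day 14 and from 6.46 to 7.47 in their controls. Rotenone-fed replicates 1 and 3 of day 14 were high, at 9.95 and 8.45. Single arrays of other days were high too: control day 1 replicate 1 (8.91), control day 3 replicate 3 (8.56) and rotenone-fed day 1 replicate 2 (8.15). The red cell markers, hemoglobin genes and Alas2, were at 7.65 to 11.35 in rotenone-fed rats of day 14. In their controls they were at 12.70 to 13.80. The 6 brain stem markers were low on single arrays of both day 14 groups. Control replicate 1 was at 8.29 against 9.45 to 9.77 in the other controls of day 14. Rotenone-fed replicate 2 was at 8.57 against 9.36 to 9.50. On control day 1 replicates 1 and 3, the cerebellar arrays, they were at 7.94 and 7.73. Neuronal markers lay between 15.01 and 15.32 on all arrays. On day 14 the 5 astrocyte markers were at 11.29 to 11.46 in rotenone-fed rats and at 11.50 to 11.83 in controls (4 of 5 below 0, median difference -0.30), and the 6 microglia markers at 8.42 to 8.61 and 8.62 to 8.74 (5 of 6 below 0, median -0.09), both without overlap. The 4 endothelium markers, at 9.08 to 9.72 and 9.46 to 9.75, and the 7 oligodendrocyte markers, at 14.19 to 14.56 and 14.39 to 14.67, overlapped, with medians of -0.21 and -0.18. Of the astrocyte, microglia, endothelium and oligodendrocyte markers none was called on day 14, whereas 2 of the 3 red cell markers were called lower. The part of all these markers in the chaperone differences was not tested. In tissue RNA, fewer cells of a type and less RNA per cell cannot be told apart.

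Differences between rotenone-fed and control rats had medians of -0.04 on day 1, -0.13 on day 3 and -0.25 on day 14. Without the control day 1 arrays that carried cerebellar transcripts the median of day 1 was -0.13 as well. Under quantile normalization of all arrays the median of day 1 was 0.005, with 6 genes above and 3 below 0. On day 14 the difference was below 0 in all 9 genes, from -0.54 to -0.03, beside a median of -0.005 and 51.4% of values below 0 over the 22093 genes. Fkbp4 was the only member called, and was among the 0.0334% of clusters called lower (limma with Benjamini-Hochberg adjustment over 68842 clusters). At an unadjusted p under 0.05, 5 of 9 members were lower, namely Fkbp4, Hsph1, Chordc1, Dnajb1 and Hsp90ab1, beside 7.31% of all genes. The shares depend on brightness: among the 3936 genes at least as bright as Dnajb1, 12.2% were lower at that threshold and 73.5% were below 0. The median of these bright genes was -0.07.

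**Figure D1:**
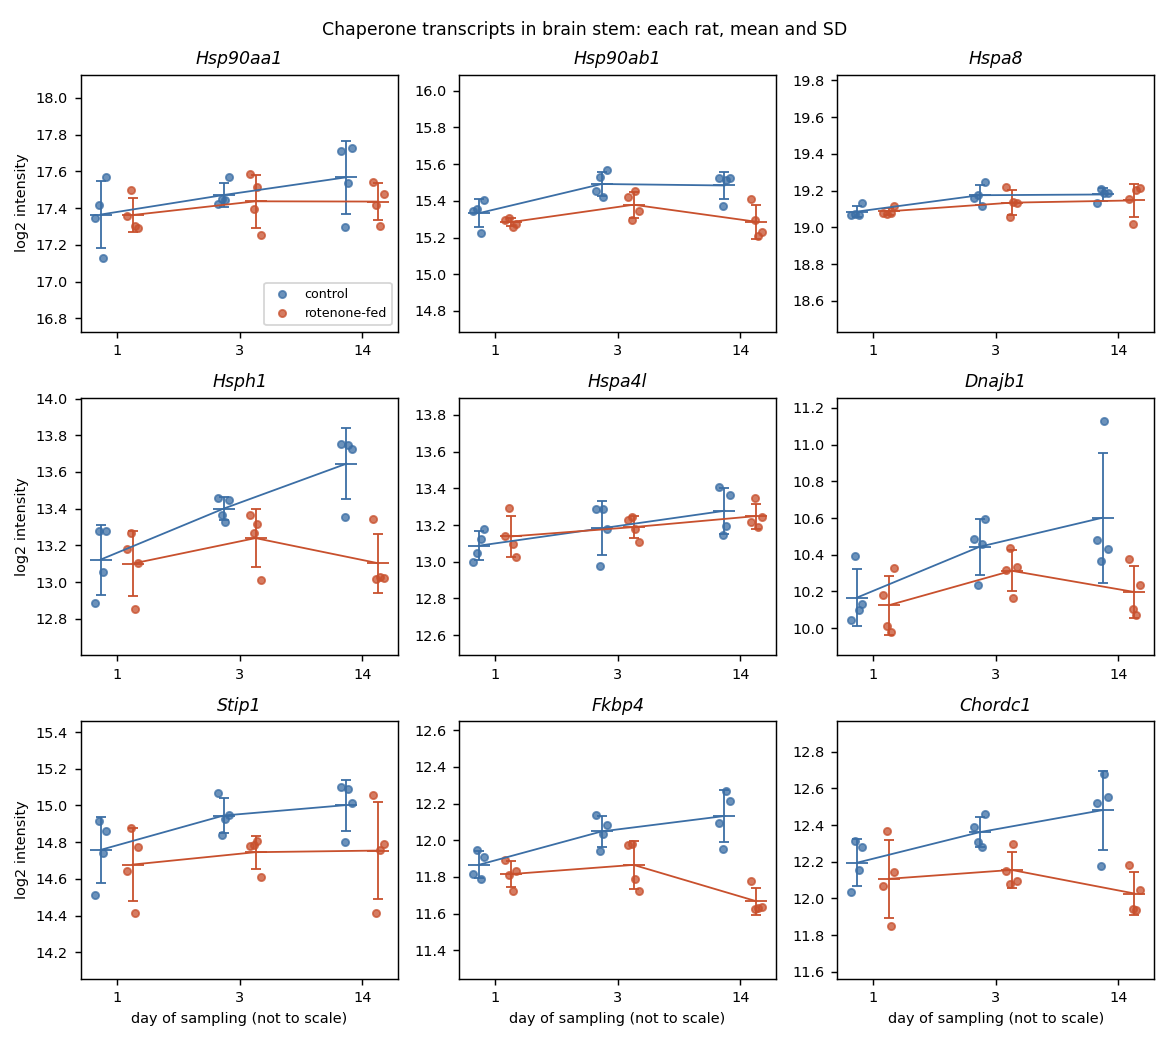
Log2 intensity of the 9 chaperone genes (y axis, the same span of 1.4 in every panel) in control (blue) and rotenone-fed (red) rats on days 1, 3 and 14 (x axis, not to scale). Points are single rats, and horizontal marks with bars are the mean and SD of 4 rats. The red and blue points of Fkbp4 and Hsph1 are fully separated on day 14.

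Fkbp4, the immunophilin of steroid receptor complexes, was lower in rotenone-fed than in control rats of day 14. Control rats had 12.09, 11.95, 12.27 and 12.22 and rotenone-fed rats 11.78, 11.63, 11.63 and 11.64. All 4 treated rats were below all 4 controls. The difference was -0.46 (SE 0.084), or 0.725-fold, with an adjusted p of 0.045 in limma and p = 0.029 in a two-sided exact permutation test, the smallest that 4 against 4 rats allow. On day 3 the control values were 12.14, 11.94, 12.03 and 12.08 and the rotenone-fed values 11.97, 11.98, 11.79 and 11.72, so that the groups overlapped. On day 1 they were intermixed, with a difference of -0.05 (SE 0.084). The call on day 14 is close to its threshold. It was not made after quantile normalization (adjusted p = 0.066), after centring of the arrays on their medians (0.074) or in a fit of the day 14 arrays alone (0.558).

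Hsph1, the Hsp110 exchange factor, showed the greatest difference of the 9 genes on day 14. In control rats 13.75, 13.36, 13.75 and 13.72 were measured, and in rotenone-fed rats 13.34, 13.02, 13.03 and 13.02. The groups did not overlap, although the lowest control and the highest treated rat were close. The difference was -0.54 (SE 0.12, 0.687-fold, exact permutation p = 0.029), and with an adjusted p of 0.115 in limma it did not pass. Non-overlap of the lower kind was seen in 2 of 9 members, Fkbp4 and Hsph1, and in 6.16% of all genes. Among the genes at least as bright as Dnajb1 the share was 10.2%. Without control day 14 replicate 2, the low control, Hsph1 was called as well (-0.64, adjusted p = 0.027).

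Chordc1, an Hsp90 partner, had 12.52, 12.17, 12.68 and 12.55 in control and 12.18, 11.94, 11.94 and 12.04 in rotenone-fed rats of day 14. Again control replicate 2 was low, and it lay just below the highest treated rat. The difference of -0.45 (SE 0.11) had an adjusted p of 0.184, and without this control it was -0.56 (adjusted p = 0.037). Dnajb1, the J-domain protein, had 10.48, 10.37, 11.13 and 10.43 in control and 10.38, 10.10, 10.07 and 10.24 in rotenone-fed rats. Its difference of -0.40 (SE 0.14, adjusted p = 0.339) was -0.23 without the control at 11.13 (adjusted p = 0.665). The shared cluster of Dnaja1 and Mir207 behaved alike: controls were at 11.18, 11.09, 11.39 and 11.17 and rotenone-fed rats at 11.07, 10.83, 10.90 and 10.95, without overlap (-0.27, SE 0.082, adjusted p = 0.290).

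The Hsp90 forms and the link to them differed less. Hsp90ab1 was at 15.52, 15.37, 15.51 and 15.52 in control rats of day 14 and at 15.41, 15.29, 15.21 and 15.23 in rotenone-fed rats (-0.20, SE 0.071, adjusted p = 0.357). Stip1 differed by -0.25 (SE 0.12, adjusted p = 0.480), with rotenone-fed rats from 14.42 to 15.06 and controls from 14.80 to 15.10. For Hsp90aa1 the difference was -0.13 (95% interval -0.35 to 0.09). Hspa8 and Hspa4l were closest to 0, at -0.03 each, with intervals of -0.17 to 0.10 and -0.21 to 0.15. Under quantile normalization these last differences turned to 0.01 and 0.02, so their sign is not settled. The dimmer Hspa8 cluster was at 0.11 (SE 0.092), and the clusters of processed copies ranged from -0.26 to 0.14, with none called.

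**Figure D2:**
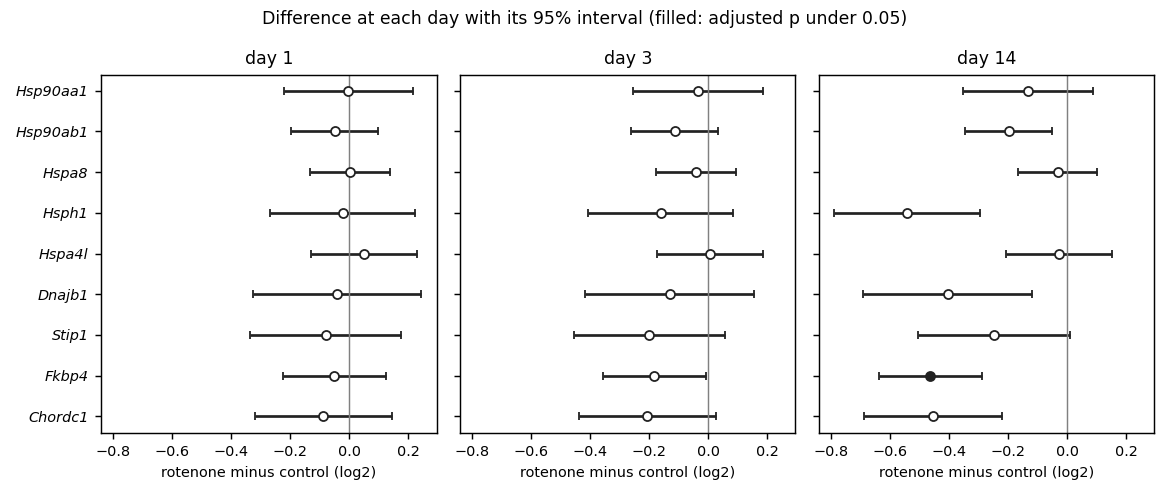
Rotenone minus control (x axis, log2) for the 9 genes (y axis) on days 1, 3 and 14, with 95% intervals from the limma fit. Filled points have an adjusted p under 0.05, which is Fkbp4 on day 14 alone. Values spread from -0.09 to 0.05 on day 1 and from -0.54 to -0.03 on day 14.

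On day 1 the 9 differences ranged from -0.09 to 0.05 with a median of -0.04, and none had an unadjusted p under 0.05, where 4.52% of genes were higher and 3.67% lower. Without the cerebellar arrays 8 of 9 were below 0, from -0.21 in Stip1 to 0.03, and still none had an unadjusted p under 0.05, beside 0.774% of genes lower. On day 3, 8 of 9 were below 0, from -0.21 in Chordc1 to 0.01 in Hspa4l, with a median of -0.13, where 47.5% of all genes were below 0. Only Fkbp4 reached an unadjusted p under 0.05 (-0.18, SE 0.084), beside 0.923% of genes. Stip1 was the one gene without overlap on day 3, beside 1.24% of genes: controls had 15.07, 14.84, 14.92 and 14.95 and rotenone-fed rats 14.78, 14.78, 14.81 and 14.61. None of the day 3 differences passed the adjusted test. Averaged over the 3 days, 6 of 9 genes were lower at an unadjusted p under 0.05, beside 5.06% of genes, with a median of -0.18, and none passed after adjustment, beside 0.00145% of clusters (Fkbp4, adjusted p = 0.178).

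Control levels also differed between days. All 9 transcripts had higher control means on day 14 than on day 1, as had 58.5% of all genes, by 0.09 in Hspa8 to 0.52 in Hsph1, with a median of 0.24 beside 0.03 over all genes and 0.10 over the bright genes. Of the bright genes, 26.3% were below 0 in this comparison. No member passed the adjusted test. At an unadjusted p under 0.05, 6 of 9 were higher (Hsph1, Dnajb1, Chordc1, Fkbp4, Hspa4l and Hsp90ab1), beside 9.7% of all genes and 21.4% of the bright genes. Groups did not overlap in 3 of 9, Hsph1, Fkbp4 and Hspa8, beside 4.49% of genes and 9.3% of the bright genes. In Hspa8 and Fkbp4 the groups nearly touched. The highest control of day 1 and the lowest of day 14 were at 19.1315 and 19.1316 in Hspa8. In Fkbp4 they were at 11.948 and 11.953. The control means stood in the order day 1, day 3, day 14 from low to high in 8 of 9 members and in 27.3% of genes, Hsp90ab1 being the exception, whose day 3 mean of 15.49 was 0.01 above day 14. Between neighbouring days the step from day 1 to day 3 had a median of 0.17, with 3 of 9 higher at an unadjusted p under 0.05 (7.31% of genes), and the step from day 3 to day 14 a median of 0.10 with 0 of 9 (0.887% of genes).

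In Hsph1 the control values were 12.89, 13.28, 13.05 and 13.28 on day 1, 13.46, 13.36, 13.33 and 13.45 on day 3, and on day 14 those given above. The means with SD were 13.12 ± 0.19, 13.40 ± 0.06 and 13.65 ± 0.19 (n = 4). Each day's controls stood above all of day 1, but day 3 and day 14 overlapped through the low replicate of day 14. The difference between day 14 and day 1 was 0.52 (SE 0.12, 1.44-fold) with an adjusted p of 0.220. Fkbp4 control means were 11.87 ± 0.07, 12.05 ± 0.08 and 12.13 ± 0.14 (SD, n = 4), a difference of 0.27 (SE 0.084, adjusted p = 0.227). For Dnajb1 the control values of day 1 were 10.04, 10.39, 10.10 and 10.13, and the difference to day 14 was 0.44 (SE 0.14, adjusted p = 0.227). Hspa8, near the top of the scale, was at 19.09 ± 0.03 on day 1 and 19.18 ± 0.03 on day 14, a difference of 0.09 (SE 0.065).

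The cerebellar transcripts on control day 1 replicates 1 and 3 move with this comparison. Without these arrays all 9 differences from day 1 to day 14 were still above 0, from 0.08 to 0.37 with a median of 0.17, but only 1 of 9 had an unadjusted p under 0.05, beside 2.04% of genes. The value was then 0.37 for Hsph1, 0.34 for Dnajb1 and 0.20 for Fkbp4, while Stip1 moved from 0.24 to 0.11 and Hsp90aa1 from 0.20 to 0.08. The step from day 1 to day 3 went to a median of 0.07 with 0 of 9 at that threshold. The means of day 14 do not use these arrays, and Fkbp4 kept its call without them (adjusted p = 0.036).

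In rotenone-fed rats the differences between day 14 and day 1 went from -0.15 in Fkbp4 to 0.11 in Hspa4l, with a median of 0.06, and 0 of 9 had an unadjusted p under 0.05, where 2.17% of genes were higher and 4.37% lower. Without the choroid plexus arrays the median was -0.02, with 4 genes above and 5 below 0. Hsph1 was at 13.10 ± 0.18 on day 1, 13.24 ± 0.16 on day 3 and 13.10 ± 0.16 on day 14 (SD, n = 4). Chordc1 was at 12.11 ± 0.21, 12.16 ± 0.10 and 12.03 ± 0.12. Fkbp4 was at 11.82 ± 0.07, 11.87 ± 0.13 and 11.67 ± 0.07, and the last step, of -0.20, was the only one between neighbouring days with an unadjusted p under 0.05, beside 6.25% of genes lower (adjusted p = 0.591). Day 14 of the rotenone-fed rats was then set against day 1 of the controls, a comparison added after the data were seen. The median of the 9 differences was -0.004. Hsph1 was at -0.02, Fkbp4 at -0.20 and Hspa4l at 0.16, and none passed the adjusted test. Without the cerebellar arrays this median was -0.09.

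**Figure D3:**
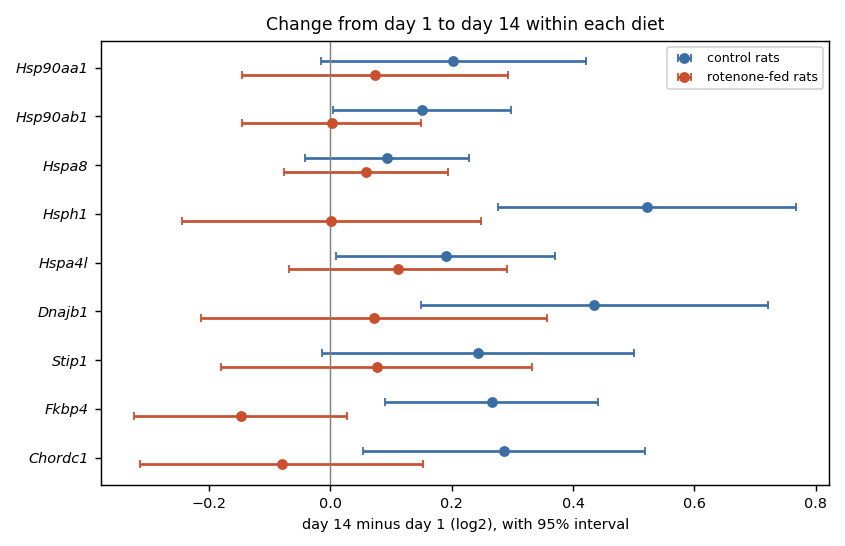
Change from day 1 to day 14 (x axis, log2, with 95% intervals from the limma fit) of the 9 genes (y axis) in control rats (blue) and rotenone-fed rats (red). Blue points lie between 0.09 and 0.52, red points between -0.15 and 0.11. The arrays of the 2 diets are different rats.

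Whether the diets differ in this change was tested in the same fit. The change from day 1 to day 14 was lower in rotenone-fed rats in all 9 genes and in 54.7% of all genes, with a median difference of -0.17, and 3 of 9 had an unadjusted p under 0.05, beside 6.04% of genes. It was -0.52 (SE 0.17) in Hsph1 with an adjusted p of 0.698 and -0.41 (SE 0.12) in Fkbp4 with an adjusted p of 0.652, so that no difference between the diets over time passed. Without the cerebellar arrays the median was -0.10 and 1 of 9 had an unadjusted p under 0.05, beside 3.01% of genes. The F test for an interaction of treatment and day gave an unadjusted p under 0.05 for 2 of 9 genes, Fkbp4 and Hsph1, beside 5.42% of genes, and no call.

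On single arrays the genes tended to deviate together. After subtraction of the group means, the 36 pairs among the 9 genes correlated with r from -0.35 to 0.85 over the 24 arrays, with a median of 0.42, and 34 pairs were above 0. This is a description, since genes of 1 array share its RNA and its hybridization. The closest pairs were Hsph1 with Chordc1 (r = 0.85), Hsph1 with Stip1 (r = 0.84) and Hsp90aa1 with Hsp90ab1 (r = 0.79). Hspa8 stood apart, with a median r of 0.12 to the other members, against 0.69 for Hsph1. Over all genes with 1 symbol, those most like the mean of the 9 members after subtraction of group means were Gpr180 (r = 0.85), Ubxn4 (r = 0.83) and Actr3 (r = 0.82) over 24 arrays.

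**Figure D4:**
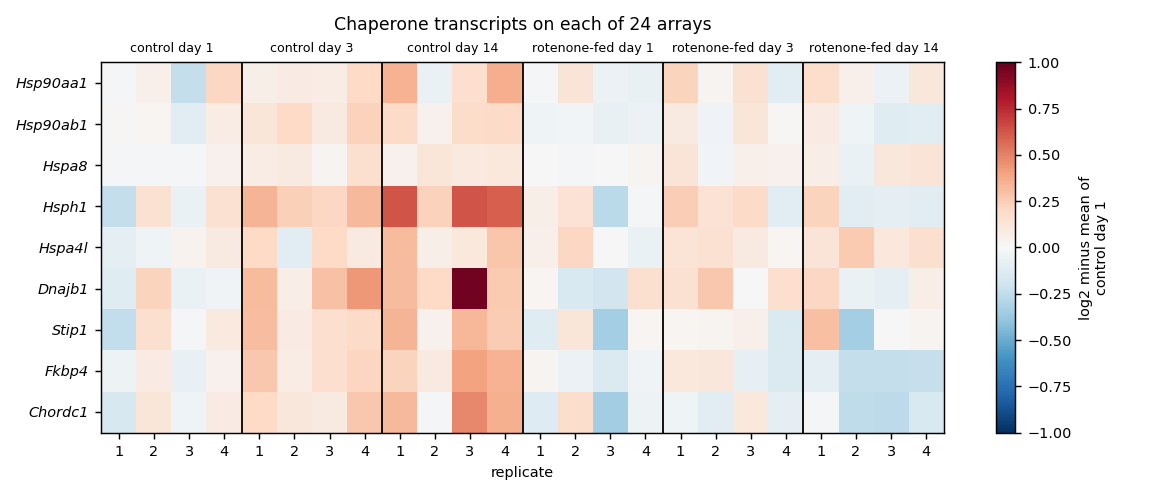
Each column is 1 of 24 arrays, grouped by diet and day with its replicate number, and each row 1 gene; colour gives log2 intensity minus the gene's mean in control day 1. Control day 14 replicates 1, 3 and 4 are red in most rows, with Hsph1 above 13.7 there, and control day 14 replicate 2 is paler.

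Related gene lists were chosen with earlier results of these data known, so that they describe the surroundings of the 9 genes and do not support them. Values of all lists include the control day 1 arrays that carried cerebellar transcripts. The limit given above for changes of control rats from day 1 to day 14 applies to them. Of 12 heat-inducible genes 9 were measured, with a median of -0.13 on day 14 and 8 of 9 below 0, beside 51.4% of all genes. None of the 9 was called, and 1 was lower at an unadjusted p under 0.05, beside 7.31% of genes. Cryab, a small heat shock protein, had the greatest difference (-0.67, adjusted p = 0.298). In control rats from day 1 to day 14 the list's median was 0.32, with Bag3, a co-chaperone of Hsp70 in autophagy, at 0.75 (adjusted p = 0.220) and Hspb8, its partner, at 0.51 (adjusted p = 0.227). Of these 9 genes 7 were above 0, beside 58.5% of all genes, and 3 were higher at an unadjusted p under 0.05, beside 9.7%. Dnajb5 (-0.41, adjusted p = 0.234) and Ier5 (-0.20) were below 0. Hspa1a, the classical stress-induced Hsp70, was dim, with group means from 5.64 to 6.01. Of the 4 heat shock factor genes none was called, and their medians were 0.01 on day 14 and 0.02 in control rats over time. Hsf1, the factor named above, was at -0.27 on day 14 (SE 0.098, unadjusted p = 0.011, adjusted p = 0.357) and at -0.21 averaged over the days (adjusted p = 0.247).

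Of 19 other Hsp90 co-chaperones, 14 were below 0 on day 14 with a median of -0.07, beside 51.4% of all genes below 0. Ahsa2 was at -0.39 (adjusted p = 0.201), and the smallest p was that of the immunophilin Ppid (-0.34, adjusted p = 0.139). In control rats 16 of 19 had higher means on day 14 than on day 1, with a median of 0.17, where 58.5% of all genes were above 0. Of 21 other Hsp70 genes and co-chaperones 11 were below 0 on day 14 (median -0.01), and 16 had higher control means on day 14 than on day 1 (median 0.11), with Bag1 at 0.39 (adjusted p = 0.220). The chaperonin and prefoldin list, which folds actin and tubulin, had 12 of 14 genes measured and medians of -0.07 on day 14 and 0.20 in controls over time. The 6 mitochondrial chaperones had medians of -0.09 and 0.21. In none of these lists was a gene called in either comparison by limma. At an unadjusted p under 0.05 on day 14, 3 of 19, 3 of 21, 3 of 12 and 1 of 6 were lower, in the order given, beside 7.31% of genes, and 0 were higher.

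Chaperones of the endoplasmic reticulum were below 0 on day 14 in 12 of 12 measured genes, beside 51.4% of all genes, with a median of -0.24. At an unadjusted p under 0.05, 8 of 12 were lower, beside 7.31% of genes. Among the genes at least as bright as Dnajb1, these shares were 73.5% and 12.2%. Pdia4, a protein disulfide isomerase, was at -0.44 (adjusted p = 0.181), Pdia6 at -0.38 (adjusted p = 0.234) and Hyou1, an Hsp70-like protein of that compartment, at -0.33 (adjusted p = 0.263), none of which passed. The cold-induced RNA-binding genes ran the other way: Rbm3 was at 0.65 (adjusted p = 0.101) and Cirbp at 0.38 (adjusted p = 0.131) on day 14, and in controls from day 1 to day 14 their median was -0.42. Of 14 circadian clock genes Bmal1 was called lower on day 14 (-0.69, adjusted p = 0.018). The clock and red cell values move with the day 14 comparison, and their part in the chaperone differences was not tested.

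**Figure D5:**
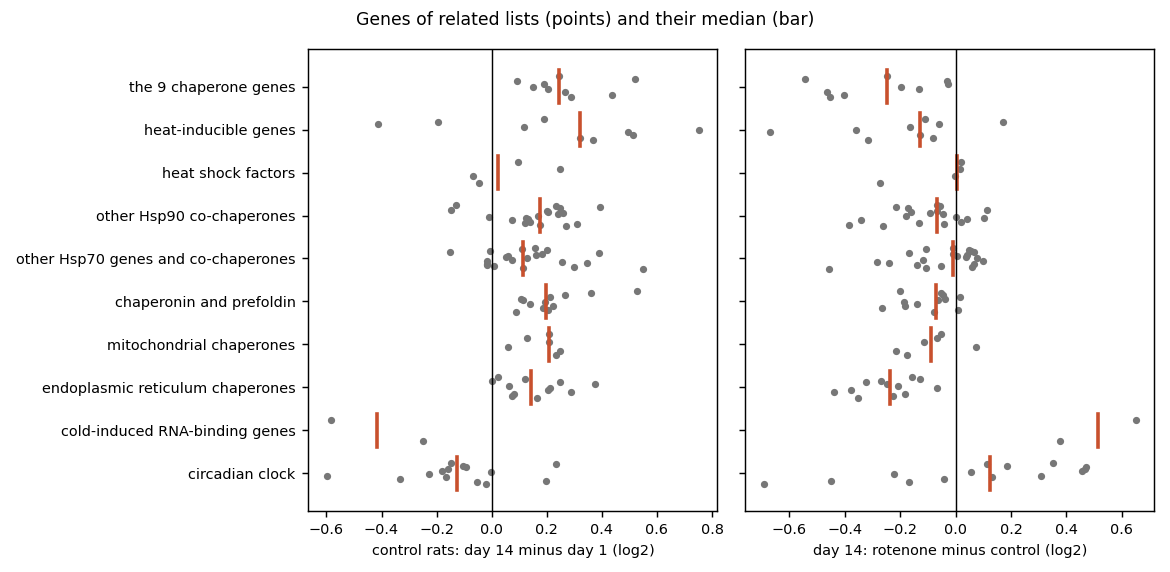
Differences of single genes (points, log2, x axis) and list medians (red bars) for the 9 chaperone genes and 9 related lists (y axis), in control rats from day 1 to day 14 (left) and for rotenone minus control on day 14 (right). The medians of the 9 chaperone genes are 0.24 and -0.25, and the cold-induced and clock lists have medians of the opposite sign in both panels.

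The run of 3 heat shock units was also looked up outside the members. Of the genes with such a promoter, 107 were measured besides the members, and their median was 0.01 on day 14 (-0.03 after quantile normalization) and 0.03 in control rats from day 1 to day 14, close to -0.01 and 0.03 for the 17125 genes with a promoter. Serpinh1, the collagen chaperone Hsp47, was among the lowest on day 14 (-0.64, adjusted p = 0.138), and the mitochondrial chaperones Hspd1 and Hspe1 were at -0.18 and -0.21. None of the 107 was called, and at an unadjusted p under 0.05 on day 14, 6 were higher (5.61%) and 14 lower (13.1%), beside 5.22% and 7.31% of all genes. Most of the 107 were dimmer than the members. The 14 of them at least as bright as Dnajb1, looked at after the data were seen, had a median of -0.17 on day 14. Of these 14, 92.9% were below 0 and 5 were lower at that threshold. Among all genes as bright, the median was -0.07, with 73.5% below 0 and 12.2% lower at that threshold. In control rats from day 1 to day 14 the median of the 14 was 0.11, beside 0.10 over all genes as bright. These named genes were chosen after their values were seen.

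Arrays that moved with the day 14 comparison were also left out. Without rotenone-fed replicates 1 and 3, which carried choroid plexus transcripts, 8 of 9 members were below 0, with a median of -0.40, and 6 of 9 had an unadjusted p under 0.05, beside 6.05% of genes. Fkbp4 was then at -0.50 and Hsph1 at -0.63, but with 2 rats in the group no member was called. The criteria used in the study combine an analysis of variance, a rank test and a 1.8-fold cut-off. Its methods do not state how the factors of the analysis of variance were joined, or to which control value the cut-off refers. Its heatmap shows ratios to the control mean. For the recomputation from the deposited values, the mean ratio of treated rats to the control median was chosen. With this choice 17 clusters met the criteria, and none of the 9 genes was among them. The ratio on day 14 was 0.715 for Fkbp4 and 0.648 for Hsph1.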

How the data were processed

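Total RNA of brain stem was hybridized to Affymetrix RTA 1.0 arrays, 1 rat for each array. Probe signals were treated by the authors with GCCN and SST and summarized by RMA, and the deposited values are linear intensities, 1 for each cluster. Arrays have no read depth, and their number sets the precision. Of 70580 entries, 1738 control probe sets were set aside. The remaining 68842 clusters were log2-transformed and not normalized further. Array medians lay between 70.7 and 82.6. Symbols came from the array annotation (23446 clusters with 1 symbol, 505 with several, 44891 with none), and a gene was represented by its brightest cluster.

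A linear model with 1 mean for every group was fitted in limma 3.58.1 (R 4.3.3; 18 residual and 3.64 prior degrees of freedom). Benjamini-Hochberg adjustment ran over all 68842 clusters, and the threshold was 0.05. Single differences of 4 against 4 rats were also tested by a two-sided exact permutation test. The procedure was tested on simulated data. The members, the gene lists and the tests were chosen with earlier results of these data known. Named genes of the lists had the smallest p-values, at most 4 of each list.

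Replicate numbers name different rats. Alternatives were quantile normalization, median centring, other priors, bright clusters only, compared arrays only, a replicate block, the mean over clusters, and arrays left out. Promoter letters came from RefSeq (GRCr8). Plots were made in Python 3.11.15 (matplotlib 3.10.9).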

Additional observations from a re-analysis of the deposited data

Results flagged for a closer look

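Of 54 groups of 4 rats, 7 had a lowest or highest rat far from the others, where chance gives about 1 in 20. The gap to the nearest rat is given as a share of the whole range. In control rats of day 14, replicate 2 was low in Hsph1 (13.36 against 13.72 to 13.75, share 0.931) and in Hsp90ab1 (15.37 against 15.51 to 15.52, share 0.928), and replicate 3 was high in Dnajb1 (11.13 against 10.37 to 10.48, share 0.849). In rotenone-fed rats of day 14, replicate 1 was high in Hsph1 (13.34 against 13.02 to 13.03, share 0.957) and in Fkbp4 (11.78 against 11.63 to 11.64, share 0.935). In rotenone-fed rats of day 3, replicate 4 was low in Stip1 (14.61 against 14.78 to 14.81, share 0.872). In control rats of day 1, replicate 4 was high in Hspa8 (19.13 against 19.07, share 0.918).

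Fkbp4 went in opposite directions under the diets: all 4 control rats of day 14 were above the control mean of day 1, and all 4 rotenone-fed rats of day 14 were below the rotenone-fed mean of day 1. The changes differed by -0.414, and the limma test of this difference had an adjusted p of 0.652.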

How the results depend on the processing

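The number of members called lower on day 14, which was 1 (Fkbp4), became 0 under quantile normalization, under median centring (Fkbp4 -0.55), in a fit of only the groups compared, with a replicate block (adjusted p = 0.089) and without the rotenone-fed choroid plexus arrays, and 2 with only clusters at or above the median cluster, where fewer clusters are tested (Fkbp4, adjusted p = 0.0125, and Hsph1, adjusted p = 0.047). It ranged from 0 to 3 when 1 array was left out, 3 being reached without control day 14 replicate 2, and Fkbp4 lost its call in 18 of the 24 such fits. Its difference ranged from -0.52 to -0.42 over all 24. Members called higher in control rats from day 1 to day 14 ranged from 0 to 1, the latter being Hsph1 without control day 1 replicate 4 (0.57, adjusted p = 0.040). The median difference on day 14 was -0.40 without the choroid plexus arrays. For the change from day 1 to day 14 between diets, the median was -0.30 under quantile normalization and -0.32 without those arrays. The causes were not tested. No called difference turned its sign. Replicate numbers did not pair the rats: same-numbered arrays correlated with r from -0.28 to 0.29 over 60 pairs, 10 of them over 0.1. With 4 rats in a group even the day 14 difference of Stip1, -0.25, had a 95% interval that reached 0.01.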
